A study of Homo sapiens with 15 samples.

Results

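The NRF2 targets and glutathione redox genes were followed as a listed group of 46 genes through RNA-seq data of K562, a line of BCR-ABL1+ chronic myeloid leukemia. Members were taken by symbol wherever a listed gene was present in a table of normalized counts. The table of the knockout cells held 42 of the 46 among 17769 genes with an identifier, without HMOX1, GPX1, GPX7 and AKR1B1. The table of the resistant cells held all 46 among 60510.

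The groups, of 3 libraries each, number 5. EV cells carried an empty lentiviral vector and served as the control of the knockouts. HSP90α-KO cells carried Cas9 and a guide RNA against HSP90AA1, and HSP90β-KO cells a guide RNA against HSP90AB1. The sample notes say of all that they were sorted by a fluorescent marker and selected as single clones, and none was treated. PU-H71 resistant cells (PUHr) were K562 cells kept for a long time in rising amounts of PU-H71, an inhibitor of the ATP pocket of HSP90, with resistant clones picked from semisolid medium. Parental cells were kept in the solvent DMSO in parallel and are the control of PUHr. How many clones make up a group, and which, is not in the labels, so that the loss of an isoform or the resistance cannot be told apart from the clone. The study calls the replicates independent, without the labels saying whether they were separate cultures, and the p-values measure only the spread between these libraries.

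NRF2, the product of NFE2L2, is a transcription factor that drives genes for the detoxification of electrophiles and oxidants. KEAP1 holds NRF2 in the cytosol and hands it to the CUL3 ubiquitin ligase until oxidants or electrophiles modify KEAP1, after which NRF2 binds antioxidant response elements together with small MAF proteins. Its targets make and recycle glutathione and thioredoxin, reduce quinones and carbonyls, and break down heme and peroxides.

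Values are given as CPM, recovered from the log2 CPM in the tables. CPM are the reads on a gene scaled to 1e06 reads of the effective size of its library. This size differs from the reads on genes, as with 20486032 against 21112564 in HSP90α-KO replicate 1. Between 19594381 and 26216730 reads per library fell on genes, and a single read was worth 0.0381 to 0.0518 CPM. The tables were normalized separately, so that no test was made across them, and levels of EV and parental cells set side by side are a description. Genes reaching a log2 CPM of -1 in at least 3 libraries were tested with limma in 1 fit per table, and p-values were adjusted over all tested genes. A member that passed did so at an adjusted p under 0.05.

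The targeted genes were read first as a check of the labels. HSP90AA1 stood at 716, 683 and 713 CPM in EV, at 92.6, 88 and 90.8 CPM in HSP90α-KO and at 1218, 1190 and 1210 CPM in HSP90β-KO. HSP90AB1 stood at 2823, 2783 and 2812 CPM in EV, 3266, 3310 and 3344 CPM in HSP90α-KO and 1939, 1909 and 1889 CPM in HSP90β-KO. Each knockout had the lowest level of the gene named in its label, without overlap with the other groups, and transcripts of both genes were still counted in both knockouts. In the other table HSP90AA1 was at 1721, 1720 and 1696 CPM in parental cells and 1559, 1592 and 1553 CPM in PUHr. HSP90AB1 was at 4578, 4496 and 4517 CPM in parental cells and 3953, 3759 and 3828 CPM in PUHr. Both genes were lower in every PUHr library than in every parental library. The labels of these groups name no HSP90 gene, so that the values are a description and no check. For PUHr the study reports a copy number gain over HSP90AA1, and more HSP90α protein after renewed PU-H71. The RNA levels here are a different measure.

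In HSP90α-KO cells the regulator NFE2L2, the quinone reductase NQO1, the carbonyl reductase AKR1C1 and the glutathione transferase GSTO1 rose, while the peroxiredoxin PRDX4 and AKR1C3 fell. In HSP90β-KO cells most changes were under 0.3 on the log2 scale, apart from the loss of PTGR1 reads, a fall of GSTA4 and AKR1C1 and a rise of GSTM3. In PUHr cells NQO1, AKR1C1 and PTGR1 fell beyond 1 on the log2 scale and AKR1B1 rose, and more members fell than rose.

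Of the 46 members, 41 passed the filter on low values in the knockout table, where GPX2 was below it. In HSP90α-KO against EV 14 of the 41 were higher and 11 lower, 34.1% and 26.8% of them, against 27.5% and 26.6% of all 17039 tested genes. With a log2 fold change beyond 1, the rule of the study, 2 members were called, against 10.3% of all genes. The median log2 fold change of the members was 0.03 and that of all genes -0.01. The median size of the change was 0.20 in the members and 0.24 in all genes, so that the members as a group lay close to the background. Under quantile normalization 12 were higher and 14 lower, 29.3% and 34.1%, against 25.2% and 27.7% of all genes.

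In HSP90β-KO against EV 18 of the 41 were higher and 8 lower, 43.9% and 19.5%, against 17.2% higher and 17.2% lower among all genes. Beyond 1 a single member was called, PTGR1, against 4.48% of all genes, and 2 were without EV replicate 2 or without HSP90β-KO replicate 1, where GSTA4 passed -1 (-1.02 at the most). The median log2 fold change was 0.08 in the members and 0.00 in all genes, and the median size 0.13 and 0.15. The members thus passed more often than all genes at a slightly smaller median size, and genes of like abundance were not compared. After median centring of the libraries 10 members were higher and 11 lower, 24.4% and 26.8%, against 12.5% and 21.6% of all genes. Without the intensity trend 16 members in place of 26 were called, 11 higher and 5 lower, 26.8% and 12.2%, against 13.1% and 14.6%.

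Both comparisons share the EV libraries, and the difference between the knockouts was therefore tested in itself. In HSP90α-KO against HSP90β-KO 18 of the 41 members were higher and 15 lower, against 30.1% and 29.8% of all genes, and 3 were called beyond 1, against 12.7%. The median log2 fold change was -0.04 in the members and -0.01 in all genes. Under quantile normalization 13 were higher and 18 lower, 31.7% and 43.9%, against 27.9% and 31.5% of all genes.

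Of the members in the resistance table, 41 were tested, and GPX1, GPX2, GPX7, SRXN1 and HMOX1 were below the filter. In PUHr against parental cells 10 of the 41 were higher and 21 lower, 24.4% and 51.2%, against 25.6% and 25.8% of all 16503 tested genes. Beyond 1, 4 members were called, against 10.1% of all genes, and 3 with any of the 6 libraries left out, since PTGR1 or AKR1B1, present in 3 libraries alone above the filter, was then not tested. The median log2 fold change of the members was -0.12 and that of all genes 0.00, and the median size 0.24 and 0.21. The share of lower members was thus above that of all genes. Such a share also depends on abundance, as the standard error was 0.021 for PRDX1, at 474 CPM in PUHr, and 0.26 for GPX3, at 0.843 CPM. Genes of like abundance were not compared. With median centring, which lowers all genes alike, 8 were higher and 27 lower, 19.5% and 65.9%, against 21.3% and 31.5% of all genes.

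**Figure D1:**
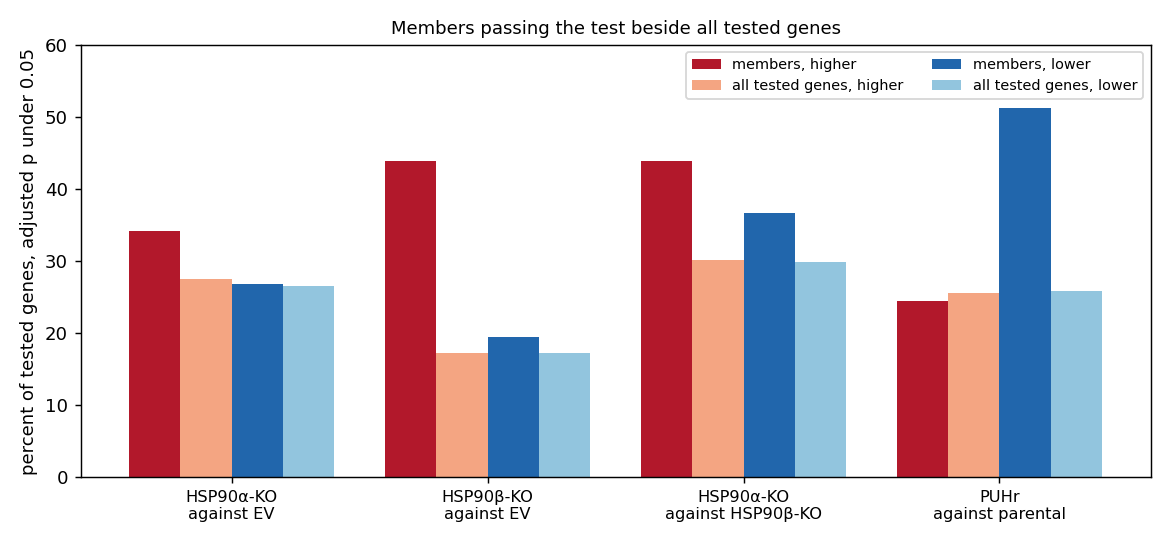
Percent of the 41 tested members (dark bars) and of all tested genes (light bars) that were higher (red) or lower (blue) at an adjusted p under 0.05, in each of the 4 comparisons. The members stand furthest from all genes in PUHr and in HSP90β-KO. In PUHr 51.2% were lower against 25.8%. In HSP90β-KO 43.9% were higher against 17.2% (26.8% against 13.1% without the intensity trend). These shares also depend on abundance, and genes of like abundance were not compared.

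**Figure D2:**
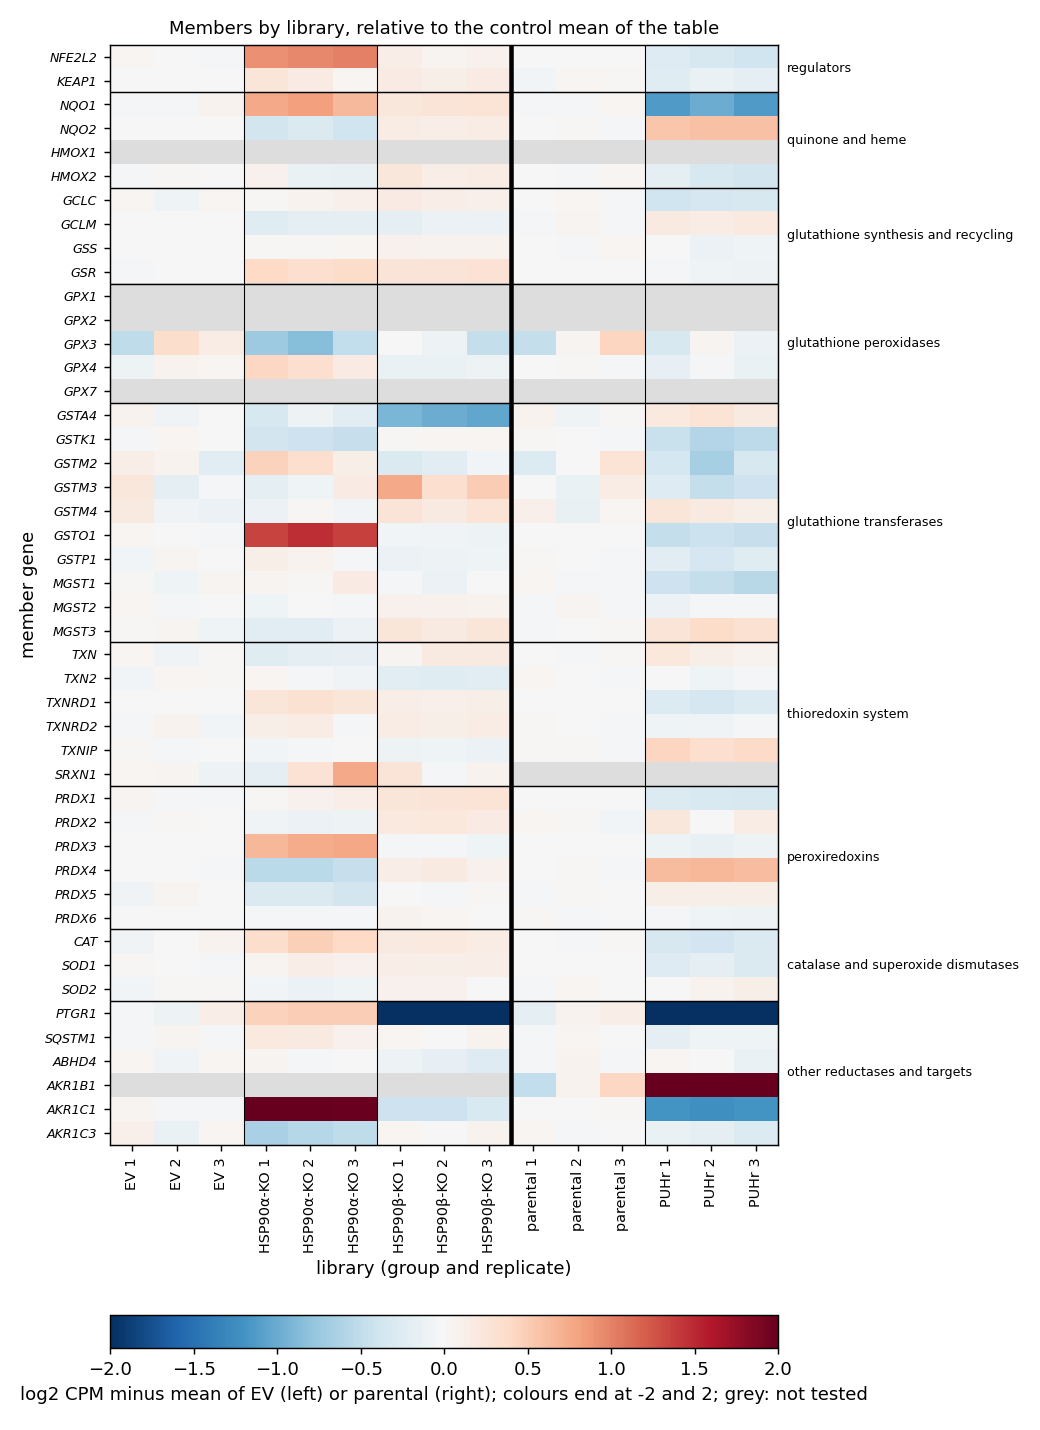
Each cell is the log2 CPM of a member in a library, less the mean of the 3 EV libraries (left of the thick line) or of the 3 parental libraries (right), with members ordered by role and colours ending at -2 and 2. Grey members were not tested in that table, and AKR1C1 and GSTO1 are deep red in each of the 3 HSP90α-KO libraries.

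Upstream sequences are shown for 7 members on which the results turn, all of them past the test in PUHr. A reader can see where the letters of an antioxidant response element lie in these sequences. They are the 250 bases before the transcription start from the RefSeq promoter table of GRCh38.p14, read 5′ to 3′ on the strand of the gene. Capitals mark matches to the core TGACNNNGC on either strand. The printed windows lie at chr2:177264132-177264381 (minus strand), chr16:69726561-69726810 (minus), chr1:93909431-93909680 (minus), chr10:104254642-104254891 (plus), chr11:67583562-67583811 (plus), chr10:4963165-4963414 (plus) and chr9:111599432-111599681 (minus), in the order of the lines.
NFE2L2: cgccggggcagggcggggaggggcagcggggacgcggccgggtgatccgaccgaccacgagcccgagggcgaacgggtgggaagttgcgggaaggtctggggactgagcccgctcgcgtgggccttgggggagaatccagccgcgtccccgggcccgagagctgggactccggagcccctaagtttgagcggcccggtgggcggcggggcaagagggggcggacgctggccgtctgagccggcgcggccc
NQO1: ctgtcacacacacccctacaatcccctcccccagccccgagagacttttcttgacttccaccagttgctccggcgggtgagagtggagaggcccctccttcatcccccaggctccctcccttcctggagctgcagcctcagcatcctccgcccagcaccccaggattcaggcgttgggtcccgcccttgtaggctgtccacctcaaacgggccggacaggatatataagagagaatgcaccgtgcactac
GCLM: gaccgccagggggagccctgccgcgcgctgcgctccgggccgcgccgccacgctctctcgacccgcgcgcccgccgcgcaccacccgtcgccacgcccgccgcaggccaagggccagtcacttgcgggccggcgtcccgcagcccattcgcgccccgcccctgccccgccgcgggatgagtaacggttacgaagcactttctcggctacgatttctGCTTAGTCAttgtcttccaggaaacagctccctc
GSTO1: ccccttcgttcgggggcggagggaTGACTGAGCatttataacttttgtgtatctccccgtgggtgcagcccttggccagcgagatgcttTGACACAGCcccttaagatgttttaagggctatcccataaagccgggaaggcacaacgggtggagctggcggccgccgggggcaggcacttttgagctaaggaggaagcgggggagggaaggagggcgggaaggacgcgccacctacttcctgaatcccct
GSTP1: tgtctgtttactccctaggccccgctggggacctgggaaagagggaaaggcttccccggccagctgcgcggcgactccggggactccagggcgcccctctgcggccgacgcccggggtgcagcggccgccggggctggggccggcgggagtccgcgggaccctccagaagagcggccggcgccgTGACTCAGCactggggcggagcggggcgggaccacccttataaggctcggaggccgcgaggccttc
AKR1C1: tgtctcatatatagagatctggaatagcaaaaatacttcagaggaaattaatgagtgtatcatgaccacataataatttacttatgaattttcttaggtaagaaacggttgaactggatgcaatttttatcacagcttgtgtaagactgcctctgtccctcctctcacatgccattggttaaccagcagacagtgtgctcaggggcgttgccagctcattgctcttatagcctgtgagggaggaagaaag
PTGR1: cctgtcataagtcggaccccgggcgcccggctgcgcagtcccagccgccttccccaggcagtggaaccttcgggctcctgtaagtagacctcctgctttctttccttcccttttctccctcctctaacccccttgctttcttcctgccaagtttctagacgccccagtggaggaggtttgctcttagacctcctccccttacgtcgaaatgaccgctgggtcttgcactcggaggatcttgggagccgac
The promoter table held 38 of the 46 members, not HMOX1, GSS, GSR, MGST2, TXN2, PRDX1, PRDX6 and SOD1. In the whole window, which runs on to 50 bases after the start, the core was present in 6 of the 38, GCLM, GPX2, GSTA4, GSTO1, GSTP1 and TXNRD1. That is 15.8% of the members and 13.3% of all 35116 promoters of the same length. Each member was read at its first listed promoter alone, while a gene may count more than once among all promoters. The AP-1 site TGANTCA was present in 1 member, GSTP1, where it overlapped the core, or 2.63% of the members and 7.71% of all promoters. Of all promoters, 0.561% held both with an overlap. A match is a stretch of letters and not a measured binding site. Windows without a match, such as those of NQO1 and AKR1C1, say nothing of elements further upstream or at another start of the gene.

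NFE2L2, the gene of NRF2, was measured at 89.5, 86.6 and 85.4 CPM in EV, 166, 169.5 and 176 CPM in HSP90α-KO and 95.5, 90.3 and 93.3 CPM in HSP90β-KO. Every HSP90α-KO library lay well above the 6 others. The rise in HSP90α-KO against EV was 1.95-fold (log2 fold change 0.97, standard error 0.036, limma adjusted p = 4.5e-18), and against HSP90β-KO the log2 fold change was 0.87 (limma adjusted p = 2.3e-17). In HSP90β-KO against EV it was 0.09 (limma adjusted p = 0.045), and this call was lost in 8 of 20 alternatives, among them median centring (0.05) and the fits without EV replicate 2, EV replicate 3, HSP90α-KO replicate 2, HSP90β-KO replicate 1 or HSP90β-KO replicate 3 (0.07 to 0.09). In the other table, 80.2, 79.9 and 79.6 CPM in parental cells stood against 66.5, 63.9 and 60.9 CPM in PUHr. Here all resistant libraries were lower (log2 fold change -0.33, standard error 0.037, limma adjusted p = 3.2e-06). In v44 of GENCODE, 38.4% of the exon bases of NFE2L2 overlap another gene on either strand, HNRNPA3 and AGPS among them, so that reads in those stretches are uncertain.

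KEAP1, the adaptor that marks NRF2 for degradation, moved little. Its levels were 56.3, 56 and 56 CPM in EV, 66.3, 62.6 and 58.1 CPM in HSP90α-KO and 62.8, 60.7 and 62.4 CPM in HSP90β-KO. It was slightly higher in both knockouts than in EV, by 0.15 (limma adjusted p = 0.0054) and 0.14 (limma adjusted p = 0.013) on the log2 scale, and the knockouts overlapped each other (0.01, limma adjusted p = 0.91). The first call was lost without HSP90α-KO replicate 1 (log2 fold change 0.10, limma adjusted p = 0.052) and the second in 3 of 20 alternatives, without HSP90β-KO replicate 1 (0.13, limma adjusted p = 0.054), after median centring (0.10, limma adjusted p = 0.075) and without the intensity trend (0.14, limma adjusted p = 0.073). Among the resistance libraries KEAP1 was at 84.9, 90.3 and 89.9 CPM in parental cells and 74.8, 80.5 and 77.5 CPM in PUHr, where it fell (log2 fold change -0.19, standard error 0.037, limma adjusted p = 6.5e-04).

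NQO1 reduces quinones to hydroquinones without forming radicals and is a standard readout of NRF2. Its level was 30.5, 29.8 and 32.2 CPM in EV, 51.9, 53.9 and 48.1 CPM in HSP90α-KO and 35.8, 36.7 and 37.2 CPM in HSP90β-KO. The groups did not overlap, and their order was EV, HSP90β-KO, HSP90α-KO. NQO1 rose 1.66-fold in HSP90α-KO (log2 fold change 0.73, standard error 0.05, limma adjusted p = 1.5e-12) and 1.19-fold in HSP90β-KO (log2 fold change 0.25, standard error 0.05, limma adjusted p = 3.1e-04). Between the knockouts the log2 fold change was 0.49 (limma adjusted p = 3.4e-09). Resistance went with the other order, with 51.6, 51.6 and 53.3 CPM in parental cells and 23.7, 26.2 and 23.6 CPM in PUHr. All PUHr libraries lay below all parental libraries, and the fall was beyond 1 on the log2 scale (log2 fold change -1.09, standard error 0.048, limma adjusted p = 1.2e-10).

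NQO2, a quinone reductase that uses dihydronicotinamide riboside, moved against NQO1 in HSP90α-KO and in PUHr. It was at 174, 172 and 171 CPM in EV, 134, 141 and 131 CPM in HSP90α-KO and 191, 189.8 and 191 CPM in HSP90β-KO. It fell in HSP90α-KO (log2 fold change -0.35, standard error 0.032, limma adjusted p = 6.7e-10) and rose in HSP90β-KO (log2 fold change 0.15, standard error 0.032, limma adjusted p = 7.9e-04), and the groups were separate. In parental cells 156, 159.7 and 154 CPM were counted and in PUHr 231, 235 and 235 CPM, a rise without overlap (log2 fold change 0.58, standard error 0.025, limma adjusted p = 1.0e-10). For the 34 tested genes nearest to NQO2 on chromosome 6 the median in PUHr was 0.35, and 67.6% of them were higher, so that the gene stands in a stretch that was higher as a whole. Whether this has a part in the rise of NQO2 was not tested.

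HMOX1 and HMOX2 code for the heme oxygenases, the first inducible and an NRF2 target, the second constitutive. HMOX1 was present in the resistance table alone, with 1, 0 and 0 reads in the parental libraries and 0, 0 and 0 reads in PUHr. It was not detectable at this depth in 5 of the 6 libraries, and no fold is given. HMOX2 was at 13.8, 14.27 and 13.91 CPM in EV, 15, 12.8 and 12.7 CPM in HSP90α-KO and 16.5, 15.4 and 15.6 CPM in HSP90β-KO, and neither knockout passed against EV. It fell in PUHr, to 19.8, 17.8 and 17.3 CPM from 22.2, 21.6 and 23 CPM (log2 fold change -0.28, standard error 0.062, limma adjusted p = 0.0014).

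**Figure D3:**
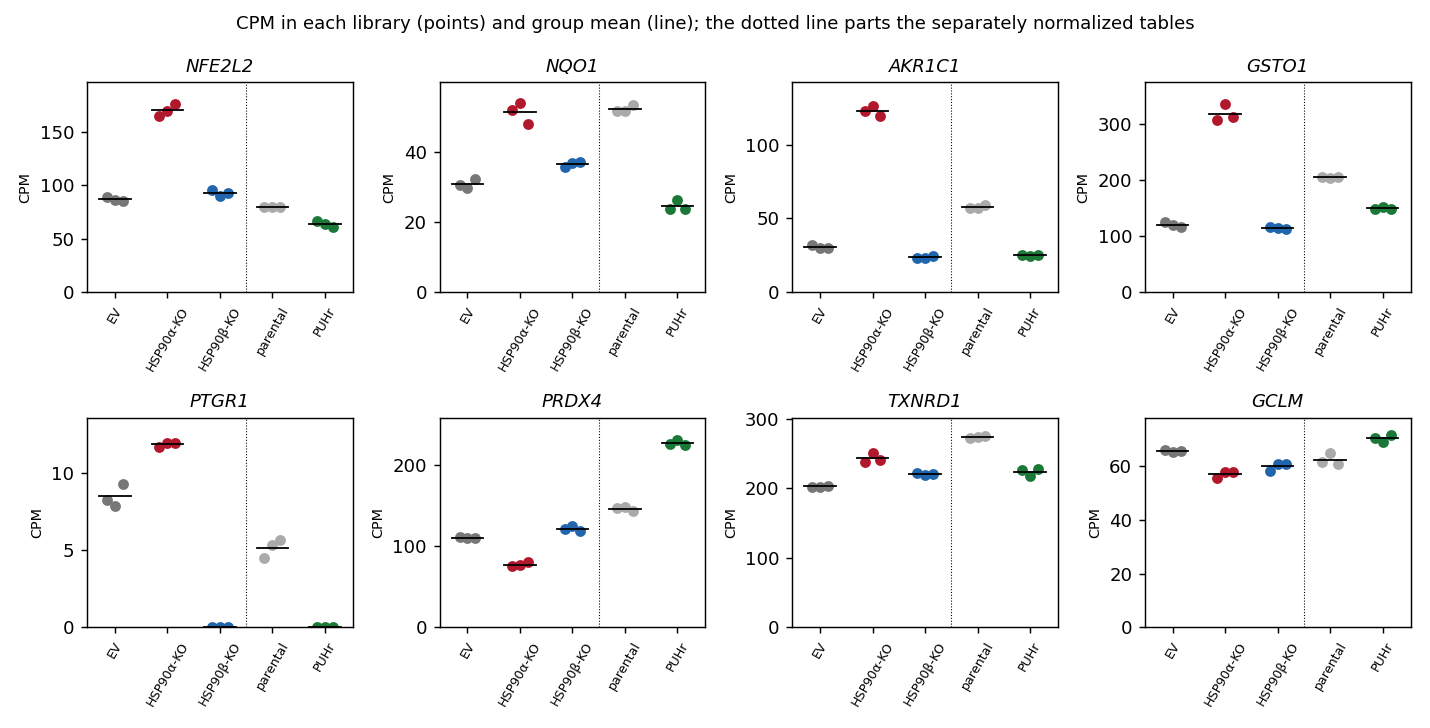
CPM of 8 members in each library (points) with the group mean (line), on axes that start at 0, and with a dotted line between the separately normalized tables. NFE2L2, NQO1, AKR1C1 and GSTO1 are high in the 3 HSP90α-KO libraries, PTGR1 is at 0 in HSP90β-KO and near 0 in PUHr, and TXNRD1 and GCLM stay within narrow ranges.

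Glutathione is made by glutamate-cysteine ligase, with the catalytic subunit GCLC and the modifier subunit GCLM, followed by the synthetase GSS, and its oxidized form is recycled by the reductase GSR. GCLC was at 56.6, 51.1 and 56.5 CPM in EV, 55.4, 57.3 and 58.2 CPM in HSP90α-KO and 61.5, 59.6 and 58.7 CPM in HSP90β-KO. The HSP90α-KO libraries overlapped EV and the log2 fold change was 0.06 (limma adjusted p = 0.27). In HSP90β-KO it was 0.13 (limma adjusted p = 0.022), a call that was lost in 6 of 20 alternatives, without EV replicate 2 (0.08, limma adjusted p = 0.15), without HSP90β-KO replicate 1 (0.11, limma adjusted p = 0.10) and without HSP90β-KO replicate 2 (0.14, limma adjusted p = 0.054), and under quantile normalization (0.12), median centring (0.09) and no intensity trend (0.13). In PUHr GCLC fell to 40.8, 42.3 and 43.1 CPM from 53.2, 54.7 and 52.2 CPM in parental cells, without overlap (log2 fold change -0.34, standard error 0.039, limma adjusted p = 3.7e-06).

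GCLM, the modifier subunit, was at 66.1, 65.5 and 66 CPM in EV, 55.6, 58 and 57.8 CPM in HSP90α-KO and 58.4, 60.9 and 61 CPM in HSP90β-KO, so that both knockouts lay below EV. The log2 fold change was -0.20 (limma adjusted p = 8.1e-05) in HSP90α-KO and -0.13 (limma adjusted p = 0.01) in HSP90β-KO, the latter lost without HSP90β-KO replicate 1 (-0.11, limma adjusted p = 0.067), and the knockouts did not pass against each other (-0.07, limma adjusted p = 0.11). In PUHr it rose to 70.5, 69.3 and 71.6 CPM from 61.7, 65 and 61 CPM (log2 fold change 0.17, standard error 0.036, limma adjusted p = 9.7e-04). GCLM, with a core match close to its start, was thus lower in HSP90α-KO, where NFE2L2 and NQO1 were higher, and higher in PUHr, where both were lower.

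GSR rose in both knockouts, from 83, 84.5 and 85.2 CPM in EV to 110.4, 107 and 109 CPM in HSP90α-KO and 101, 101 and 102 CPM in HSP90β-KO. The log2 fold changes were 0.37 (limma adjusted p = 6.2e-10) and 0.27 (limma adjusted p = 3.8e-07), with the knockouts above every EV library. In PUHr the value was -0.07 (limma adjusted p = 0.06). GSS stayed between -0.07 and 0.08 in the comparisons with a control, and its call in HSP90β-KO (limma adjusted p = 0.047) was lost in 10 of 20 alternatives, among them each fit without an EV or HSP90β-KO replicate and that without HSP90α-KO replicate 2 (0.08 to 0.09).

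Glutathione peroxidases reduce peroxides with glutathione, and GPX4 does so for lipid peroxides in membranes. GPX4 was the abundant member, with 124, 140.2 and 136 CPM in EV, 177, 168 and 148 CPM in HSP90α-KO and 122, 121 and 124 CPM in HSP90β-KO. It rose in HSP90α-KO (log2 fold change 0.30, standard error 0.048, limma adjusted p = 6.9e-06) and was lower in HSP90β-KO by a small amount close to the threshold, -0.12 (limma adjusted p = 0.049), a call lost in 10 of 20 alternatives, among them the fits without EV replicate 2, EV replicate 3, HSP90α-KO replicate 2 or any HSP90β-KO replicate (-0.13 to -0.09). In PUHr the libraries overlapped those of parental cells, and the small difference (-0.10, limma adjusted p = 0.031) no longer passed without parental replicate 1, parental replicate 2, PUHr replicate 1 or PUHr replicate 3 (-0.10 to -0.07).

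GPX3, the secreted form, was near the floor, with 0.808, 1.54 and 1.33 CPM in EV and 0.683, 0.622 and 0.821 CPM in HSP90α-KO. The groups overlapped, and although the fall passed (log2 fold change -0.69, standard error 0.25, limma adjusted p = 0.023), it was lost without EV replicate 2 (-0.51, limma adjusted p = 0.13), EV replicate 3 (-0.61, limma adjusted p = 0.086) or HSP90α-KO replicate 2 (-0.61, limma adjusted p = 0.074). GPX2 held 3 to 11 reads in every library of the knockout table and 3 to 10 in the other. GPX7 held at most 2 reads in the libraries of the resistance table. GPX1, the main cytosolic form, was listed with 0, 0 and 2 reads in parental cells and 13, 2 and 9 in PUHr. In GENCODE v44 39.9% of its exon bases are shared with another gene on the same strand, and the counting in such a stretch is uncertain, so its low level is given without a comparison.

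Glutathione transferases couple glutathione to electrophiles. GSTO1, of the omega class, was at 124, 119.9 and 116 CPM in EV, 307, 334 and 311 CPM in HSP90α-KO and 116, 115 and 112 CPM in HSP90β-KO. The HSP90α-KO libraries stood far above the rest, which lay together. The rise was 2.64-fold (log2 fold change 1.40, standard error 0.035, limma adjusted p = 1.1e-21), and 1.48 (limma adjusted p = 1.8e-22) on the log2 scale against HSP90β-KO. Its promoter window holds 2 matches to the core. On chromosome 10, however, the median for the 40 nearest tested genes was 0.64 in HSP90α-KO, and 85% of them were higher and 0% lower. The part of this neighbourhood in the rise of GSTO1 was not tested. In PUHr, GSTO1 fell to 147, 151 and 148 CPM from 204, 202 and 206 CPM (log2 fold change -0.46, standard error 0.025, limma adjusted p = 1.1e-09).

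GSTA4, which clears the lipid aldehyde 4-hydroxynonenal, was at 12.6, 11.3 and 11.9 CPM in EV, 9.57, 11 and 10.1 CPM in HSP90α-KO and 6.29, 5.93 and 5.78 CPM in HSP90β-KO. The HSP90β-KO libraries were the lowest and did not overlap the others. GSTA4 fell 1.97-fold in HSP90β-KO (log2 fold change -0.98, standard error 0.087, limma adjusted p = 9.1e-10) and less in HSP90α-KO (log2 fold change -0.22, limma adjusted p = 0.038, lost without EV replicate 1, EV replicate 3, HSP90α-KO replicate 1 or HSP90α-KO replicate 3, at -0.22 to -0.17), and differed by 0.76 (limma adjusted p = 2.8e-08) between the knockouts. In PUHr it did not pass (0.21, limma adjusted p = 0.057).

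GSTK1, the mitochondrial and peroxisomal form, was at 291, 308 and 302 CPM in EV, 234, 226 and 219 CPM in HSP90α-KO and 306, 309.8 and 309.8 CPM in HSP90β-KO. It fell in HSP90α-KO (-0.41, limma adjusted p = 1.3e-11) and did not pass in HSP90β-KO. In PUHr, 148, 134 and 141 CPM stood against 207, 202 and 198 CPM in parental cells, a fall without overlap (log2 fold change -0.52, standard error 0.034, limma adjusted p = 8.5e-09). The microsomal MGST1 did not pass in either knockout and fell in PUHr, from 101, 96.6 and 97.1 CPM to 73.3, 70.3 and 66.5 CPM (-0.49, limma adjusted p = 6.0e-08). MGST3 was lower in HSP90α-KO (-0.19) and higher in HSP90β-KO (0.22) and in PUHr (0.31), and passed in all 3.

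GSTM2, GSTM3 and GSTM4 are related genes of the mu class, and reads that fit more than 1 of them are uncertain. GSTM3 was at 2.81, 2.07 and 2.29 CPM in EV, 2.05, 2.23 and 2.67 CPM in HSP90α-KO and 4.05, 3.03 and 3.40 CPM in HSP90β-KO. The rise in HSP90β-KO passed (log2 fold change 0.53, standard error 0.16, limma adjusted p = 0.013), without overlap with EV, and was lost without EV replicate 2 (0.44, limma adjusted p = 0.063) or HSP90β-KO replicate 1 (0.42, limma adjusted p = 0.088). Between the knockouts the log2 fold change was -0.57 (limma adjusted p = 0.0038), and in PUHr it was -0.39 (limma adjusted p = 0.0082). GSTM4 passed in HSP90β-KO (0.24, lost without EV replicate 3, 0.18) and PUHr (0.18, lost after quantile normalization or median centring and without parental replicate 2, parental replicate 3 or PUHr replicate 1, 0.11 to 0.20), and GSTM2 did not pass against either control. GSTP1, the most abundant transferase at 419 CPM in EV, did not pass in HSP90α-KO and was lower in PUHr (-0.27). In HSP90β-KO its call (-0.10) was lost under quantile normalization (-0.04) and without EV replicate 2, EV replicate 3 or any HSP90β-KO replicate (-0.10 to -0.07). MGST2 did not pass against either control.

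Thioredoxin and its reductases form the other thiol system. TXNRD1, the cytosolic reductase and an NRF2 target, was at 202, 202 and 204 CPM in EV, 238, 251 and 241 CPM in HSP90α-KO and 221, 219 and 220.0 CPM in HSP90β-KO. All knockout libraries exceeded all EV libraries, and HSP90α-KO exceeded HSP90β-KO. It rose by 0.26 (limma adjusted p = 2.8e-08) and 0.12 (limma adjusted p = 0.0027) on the log2 scale, the latter lost after median centring (0.08, limma adjusted p = 0.061). In PUHr it fell, from 272, 273 and 275 CPM in parental cells to 226, 217 and 227 CPM (log2 fold change -0.29, standard error 0.025, limma adjusted p = 1.8e-07). TXNRD1 thus followed NFE2L2 and NQO1 in direction in the 3 comparisons with a control.

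TXN, the cytosolic thioredoxin, went the other way in HSP90α-KO (-0.20), and was higher in PUHr (0.13) and in HSP90β-KO (0.14), the former lost without the intensity trend, the latter without it and after median centring (0.09). TXNIP, which binds and inhibits thioredoxin, did not pass in HSP90α-KO, was lower in HSP90β-KO (-0.10, lost without the intensity trend) and rose in PUHr to 448, 422 and 434 CPM from 338, 339 and 327 CPM (log2 fold change 0.38, standard error 0.026, limma adjusted p = 1.5e-08). The mitochondrial pair showed -0.23 for TXN2 and 0.13 for TXNRD2 in HSP90β-KO, both passing, the second lost after median centring (0.09) and without EV replicate 3 or HSP90β-KO replicate 3 (0.10 and 0.12), and neither passed in HSP90α-KO or PUHr.

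SRXN1, sulfiredoxin, repairs overoxidized peroxiredoxins. It was counted with 17, 17 and 19 reads in EV, 14, 19 and 27 in HSP90α-KO and 20, 18 and 21 in HSP90β-KO. The groups overlapped, and neither knockout passed (0.29, limma adjusted p = 0.34, and 0.10, limma adjusted p = 0.79). The resistance libraries held 1, 4 and 1 reads in parental cells and 4, 16 and 6 in PUHr, below the filter. As 90.7% of its exon bases are shared with another gene on the same strand, its level is uncertain.

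Peroxiredoxins reduce hydrogen peroxide, PRDX3 in mitochondria and PRDX4 in the endoplasmic reticulum. PRDX3 was at 121, 121 and 122 CPM in EV, 193, 202 and 206 CPM in HSP90α-KO and 119, 118 and 114 CPM in HSP90β-KO. HSP90α-KO stood above the rest (log2 fold change 0.73, standard error 0.033, limma adjusted p = 4.1e-16), and the log2 fold change against HSP90β-KO was 0.78 (limma adjusted p = 6.1e-17). PRDX3 also lies on chromosome 10, and its 40 nearest tested genes had a median of 0.52 in HSP90α-KO, with 72.5% of them higher. The part of this neighbourhood was not tested. In PUHr PRDX3 was lower, with a log2 fold change of -0.13 (limma adjusted p = 7.8e-04).

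PRDX4 was at 111, 110.4 and 109 CPM in EV, 75.4, 76.2 and 79.8 CPM in HSP90α-KO and 121, 124 and 118 CPM in HSP90β-KO. It fell in HSP90α-KO (log2 fold change -0.52, standard error 0.036, limma adjusted p = 1.9e-12) and was slightly higher in HSP90β-KO (0.13, lost after median centring, 0.09), with the groups separate and a difference of -0.65 (limma adjusted p = 1.0e-14) between the knockouts. The fall ran against its surroundings on chromosome X, where the 40 nearest tested genes had a median of 0.39. In PUHr it rose to 225, 231 and 224 CPM from 146, 148 and 143 CPM, 1.55-fold (log2 fold change 0.63, standard error 0.026, limma adjusted p = 5.1e-11). Here 50% of its 40 nearest tested genes were higher as well, against 25.6% of all genes, with a median of 0.10, and 0.44 for those on the left side. The part of the neighbourhood was not tested.

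The other peroxiredoxins moved by less than 0.35 on the log2 scale. PRDX1, the cytosolic NRF2 target, was higher in HSP90β-KO (0.26) and lower in PUHr (-0.30). In HSP90α-KO (0.08) its call was lost under quantile normalization (0.01) and without EV replicate 2, EV replicate 3, HSP90α-KO replicate 2 or HSP90α-KO replicate 3 (0.06 to 0.08). PRDX2, its red cell relative, was higher in HSP90β-KO (0.20). Its calls in HSP90α-KO (-0.09) and PUHr (0.13) were lost, the first without EV replicate 3 or HSP90α-KO replicate 2 (-0.09 and -0.08), the second after median centring and without parental replicate 3, PUHr replicate 1 or PUHr replicate 3 (0.08 to 0.11). PRDX5 was lower in HSP90α-KO (-0.32) and higher in PUHr (0.12), and PRDX6 passed in PUHr alone among the comparisons with a control (-0.08, lost under quantile normalization, -0.02).

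Catalase (CAT) breaks down hydrogen peroxide in peroxisomes. It was at 44.5, 46.4 and 48.9 CPM in EV, 59.7, 64.7 and 61.2 CPM in HSP90α-KO and 53.1, 53.4 and 51.7 CPM in HSP90β-KO. Both knockouts were higher without overlap, by 0.41 (limma adjusted p = 1.5e-08) and 0.18 (limma adjusted p = 0.0025) on the log2 scale. In PUHr it fell to 94.8, 90.4 and 97.1 CPM from 118, 117 and 121 CPM (log2 fold change -0.34, standard error 0.033, limma adjusted p = 7.7e-07). The cytosolic superoxide dismutase SOD1 had the same directions at a smaller size, 0.09, 0.13 and -0.24, and passed each time, the first lost under quantile normalization (0.01) and without EV replicate 3 or HSP90α-KO replicate 2 (0.08 and 0.07). The mitochondrial SOD2 did not pass against either control.

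AKR1C1, an aldo-keto reductase of steroids and lipid aldehydes and a strong NRF2 target in other human cells, had the largest rise of a member in HSP90α-KO. Its level was 31.9, 29.9 and 30 CPM in EV, 123, 127 and 119.9 CPM in HSP90α-KO and 23, 22.9 and 24.7 CPM in HSP90β-KO. The groups were separate, with HSP90α-KO high and HSP90β-KO lowest. AKR1C1 rose 4.01-fold in HSP90α-KO (log2 fold change 2.00, standard error 0.046, limma adjusted p = 1.7e-22) and fell in HSP90β-KO (log2 fold change -0.38, standard error 0.046, limma adjusted p = 2.3e-07). Its 39 nearest tested genes on chromosome 10 had a median of -0.06 in HSP90α-KO, unlike those of GSTO1 and PRDX3. In PUHr, 25.3, 24.5 and 25.1 CPM stood against 57.3, 57.2 and 59 CPM in parental cells, a fall of 2.31-fold (log2 fold change -1.21, standard error 0.04, limma adjusted p = 5.1e-12).

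AKR1C3, the neighbour of AKR1C1, makes prostaglandin F and androgens. It was at 5.09, 4.29 and 4.88 CPM in EV, 2.98, 3.16 and 3.29 CPM in HSP90α-KO and 4.86, 4.78 and 4.99 CPM in HSP90β-KO. In contrast to AKR1C1 it fell in HSP90α-KO (log2 fold change -0.58, standard error 0.12, limma adjusted p = 2.2e-04), did not pass in HSP90β-KO (0.04), and differed by -0.62 (limma adjusted p = 8.3e-05) between the knockouts. In PUHr it was lower, with a log2 fold change of -0.19 (limma adjusted p = 0.01). AKR1C1, AKR1C2 and AKR1C3 are near copies, and reads that fit more than 1 of them are uncertain.

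PTGR1 reduces the double bond of leukotriene B4, prostaglandins and lipid aldehydes. Its reads numbered 174, 163 and 244 in EV, 240, 231 and 233 in HSP90α-KO and 0, 0 and 0 in HSP90β-KO. No read was counted in any HSP90β-KO library, while EV and HSP90α-KO held at least 163. The level in EV, 8.48 ± 0.743 CPM (SD, n = 3), was at least 65.2-fold higher than the 3 reads per library that a count of 0 allows. HSP90α-KO was slightly above EV, at 11.7, 12 and 12 CPM (log2 fold change 0.49, standard error 0.16, limma adjusted p = 0.014, lost without EV replicate 1, EV replicate 2 or HSP90α-KO replicate 3, at 0.43 to 0.48), and at least 91.4-fold above HSP90β-KO by the same floor. The fit gave -6.56 for HSP90β-KO against EV (limma adjusted p = 6.4e-21), a value that moves with the prior count and is no bound.

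Among the resistance libraries PTGR1 had 106, 128 and 120 reads in parental cells and 0, 1 and 0 in PUHr. The resistant cells had thus nearly lost its reads as well, with 1 read against 354. The ratio of parental to PUHr levels was 367, with an exact 95% interval of 65.4 to 14525 that covers counting error only. PTGR1 met the filter here through the parental libraries alone, so that its p in the filtered fit (log2 fold change -5.74, limma adjusted p = 1.3e-10) is not independent of its being high there. The 40 nearest tested genes had medians of 0.00 in HSP90β-KO and 0.07 in PUHr, so that PTGR1 moved apart from its surroundings on chromosome 9. Read counts at 0 in every replicate of a group can belong to the clone, which the design does not separate from the loss of HSP90β or the resistance.

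AKR1B1, aldose reductase, was present in the resistance table alone, with 2, 4 and 5 reads in parental cells and 55, 46 and 42 in PUHr. The PUHr libraries were all higher, at 2.21, 1.92 and 1.87 CPM. The ratio was 12.5, with an exact 95% interval of 6.81 to 25.7 for counting error. AKR1B1 met the filter through the PUHr libraries alone, so that its p, like that of PTGR1, is not independent of its being high there (log2 fold change 3.12, limma adjusted p = 2.2e-07). AKR1B1 and PTGR1 also passed when no filter on low values was set. SQSTM1, the autophagy receptor p62 that binds KEAP1, was higher in HSP90α-KO (0.15), did not pass in HSP90β-KO and was lower in PUHr (-0.12, lost without parental replicate 2, -0.09). ABHD4, a lipase listed among NRF2 targets, did not pass against either control. Without the intensity trend the calls of PRDX1 and SOD1 in HSP90α-KO, of GPX4, GSS, GSTM4, GSTP1 and TXNRD2 in HSP90β-KO, and of GPX4, GSTM4, PRDX2, PRDX6 and SQSTM1 in PUHr were also lost.

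**Figure D4:**
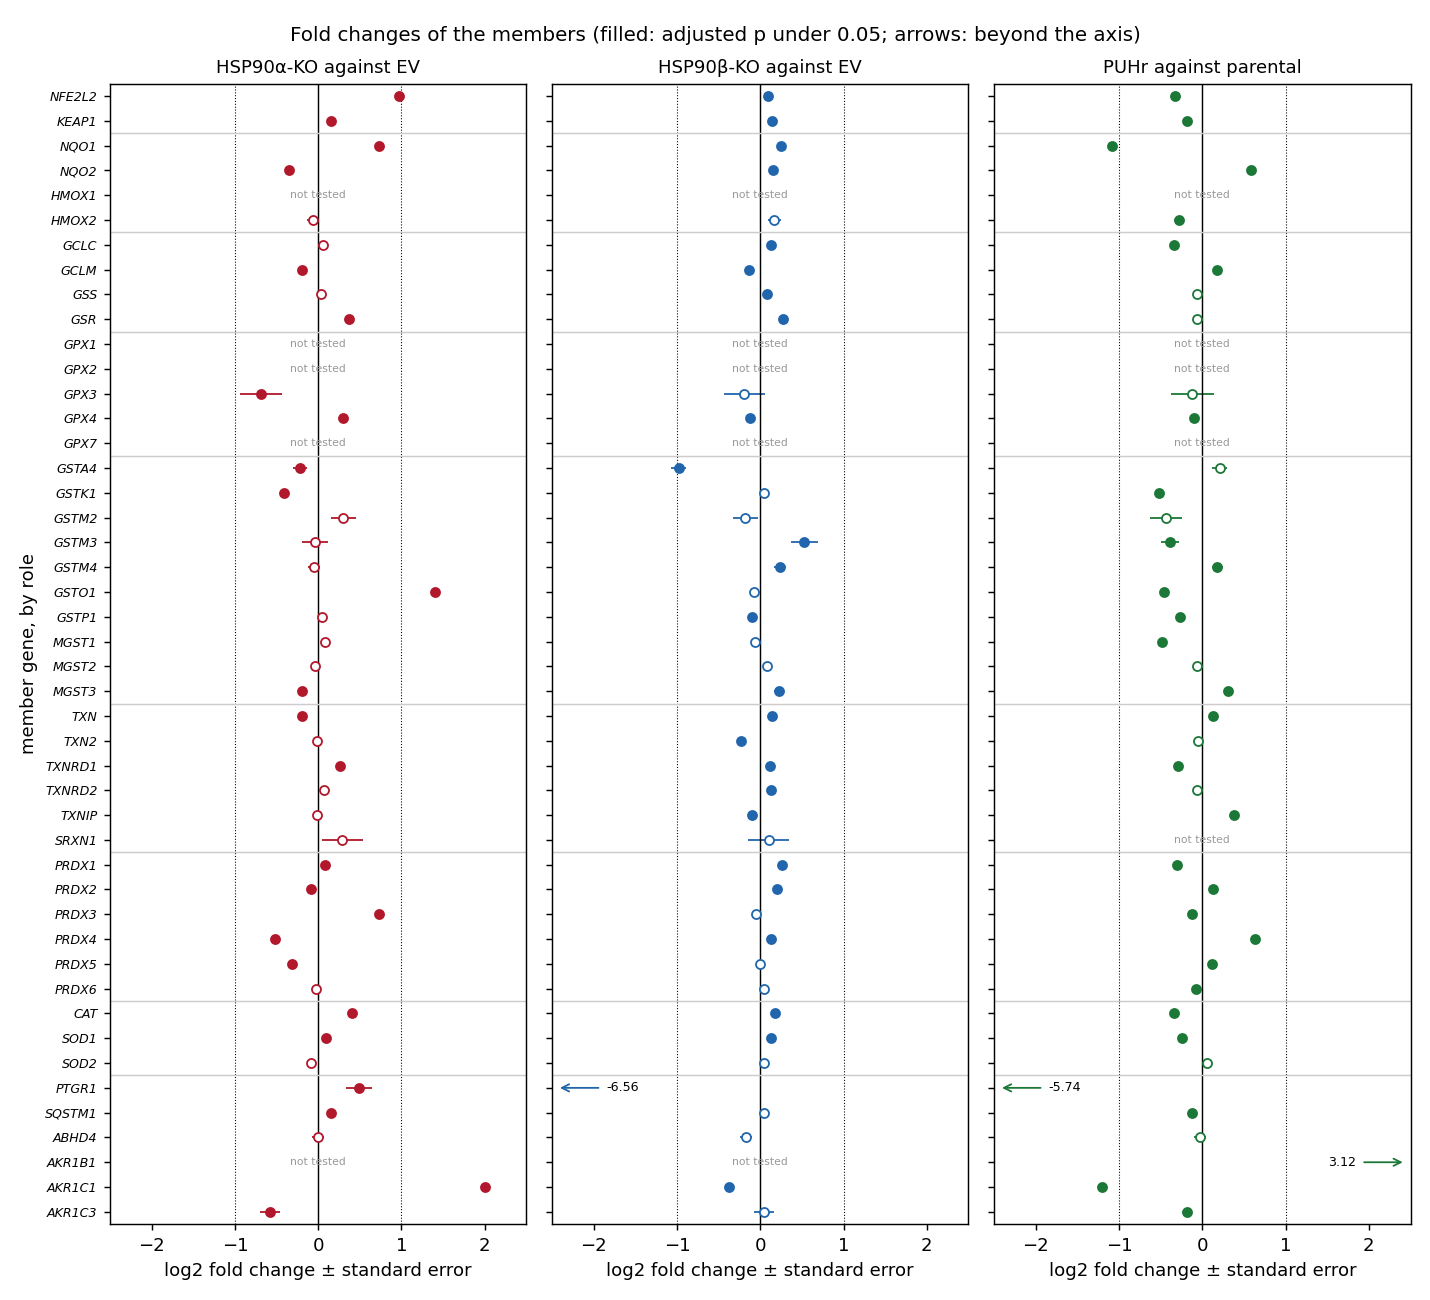
Log2 fold change with its standard error for each member in 3 comparisons, by role, with filled points for an adjusted p under 0.05, dotted lines at -1 and 1, and arrows with the value where a point lies beyond the axis. NQO1, TXNRD1 and CAT lie to the right in both knockouts and to the left in PUHr.

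Per length, the levels of the members spanned a wide range. In EV the highest were PRDX5, PRDX6, GSTP1 and PRDX1, with 240 CPM per kb of exon for PRDX5, 238 for PRDX6, 237 for GSTP1 and 218 for PRDX1. In parental cells PRDX1 led with 346, followed by GSTP1 with 283 and PRDX6 with 267 CPM per kb. By this measure the regulators were lower, with 5.82 CPM per kb for NFE2L2 and 15.7 for KEAP1 in EV. The length is that of all annotated exons of a gene joined, and not of a single transcript. It was 14975 bases for NFE2L2 and 3573 for KEAP1, so that the order depends on the annotation. Without the length, NFE2L2 was at 87.2 CPM and KEAP1 at 56.1 CPM in EV.

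**Figure D5:**
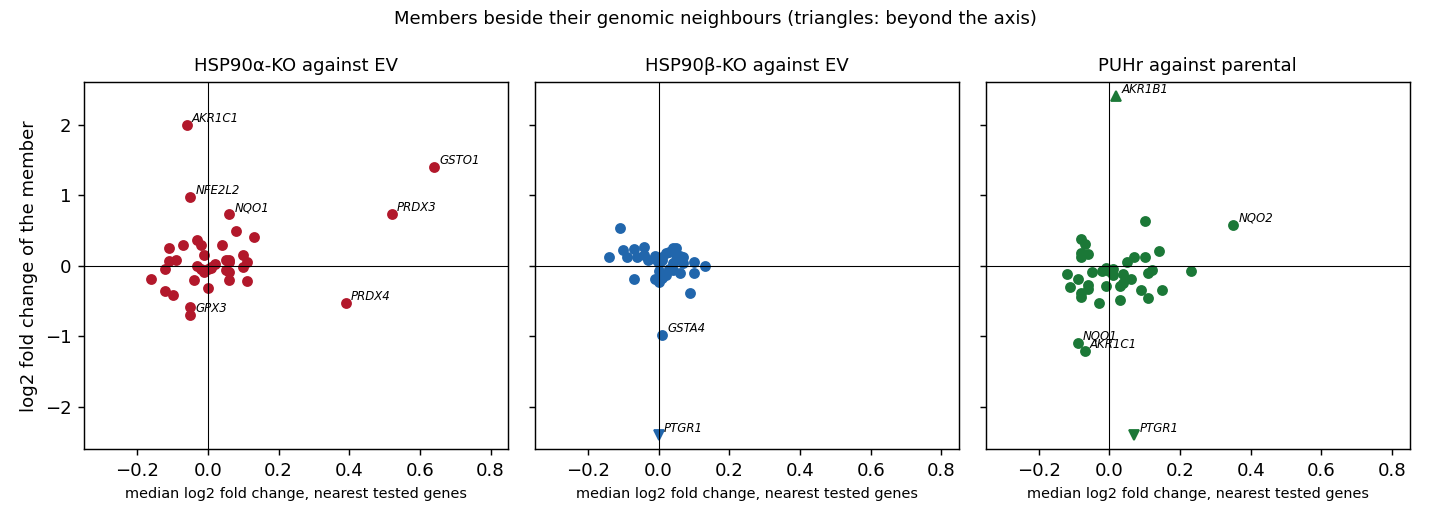
Log2 fold change of each tested member against the median of the 20 nearest tested genes on each side, in 3 comparisons, with triangles for members beyond the axis. GSTO1 and PRDX3 stand in stretches of chromosome 10 that were higher in HSP90α-KO, PRDX4 fell in a stretch of chromosome X that was higher, and most other members have neighbours with medians near 0.

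Other genes of the pathway were taken from a list of 63, with 55 of them tested in the knockouts and 57 in PUHr. In HSP90α-KO 21 of the 55 were higher and 14 lower (38.2% and 25.5%, against 27.5% and 26.6% of all genes), in HSP90β-KO 15 and 10 (27.3% and 18.2%, against 17.2% and 17.2%), and in PUHr 14 and 21 of the 57 (24.6% and 36.8%, against 25.6% and 25.8%). Their median log2 fold changes were 0.06, 0.04 and -0.06. Among 12 regulators of NRF2, BTRC, an adaptor of a second ubiquitin ligase for NRF2, which like GSTO1 lies on chromosome 10, rose from 32.4, 32.3 and 31 CPM in EV to 119.8, 123 and 124 CPM in HSP90α-KO (log2 fold change 1.93, standard error 0.041, limma adjusted p = 3.5e-23). CUL3, the ligase partner of KEAP1, showed 0.37 in HSP90α-KO and -0.54 in HSP90β-KO, both passing, with a difference of 0.91 (limma adjusted p = 4.2e-17) between them. The small MAF gene MAFG was lower in HSP90α-KO (-0.38), and the repressor BACH1 passed in neither knockout.

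For the supply of substrates, SLC7A11, the cystine importer and an NRF2 target, fell in HSP90α-KO (-0.39) and HSP90β-KO (-0.20) and rose in PUHr (0.23). Of the 6 genes listed for the supply of cystine and glutathione, 2 were higher and 1 lower in HSP90α-KO, where 27.5% and 26.6% of all genes were called. In HSP90β-KO 1 and 1 were called, beside 17.2% and 17.2% of all genes, and in PUHr 1 and 2, beside 25.6% and 25.8%.

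Among 18 other NRF2 targets, 8 were higher and 1 lower of the 15 tested in HSP90α-KO, 3 and 4 in HSP90β-KO, and 3 and 8 of 16 in PUHr, where 27.5% and 26.6%, 17.2% and 17.2%, and 25.6% and 25.8% of all genes were called. PIR rose in HSP90α-KO (1.14) and HSP90β-KO (1.03) and fell in PUHr (-1.11). The ferritin light chain FTL was higher in HSP90α-KO (0.53) and lower in PUHr (-0.59), and the heavy chain FTH1 had the other sign in both (-0.18 and 0.67). Of 20 other thiol redox genes, 6 were higher and 6 lower of the 15 tested in HSP90α-KO, against 27.5% and 26.6% of all genes. In HSP90β-KO 6 and 1 were called, against 17.2% and 17.2%, and in PUHr 6 and 2 of 16, against 25.6% and 25.8%. GPX8, a peroxidase of the endoplasmic reticulum, went from 4, 3 and 1 reads in EV to 99, 96 and 78 in HSP90α-KO. The ratio was 39.2, with an exact 95% interval of 19.6 to 91.6 for counting error only. GPX8 met the filter of the knockout table through the HSP90α-KO libraries alone, where it was high. In PUHr it had 226, 209 and 214 reads against 10, 17 and 8 in parental cells (log2 fold change 4.01). SESN3, a sestrin, rose in HSP90α-KO (3.33), HSP90β-KO (3.15) and PUHr (2.31). MSRB1 fell in HSP90α-KO (-0.57) and PUHr (-0.63) and rose in HSP90β-KO (0.21). SOD3, past the filter through parental cells alone, fell from 109 reads there to 7 in PUHr.

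The identity of the cells was read from fixed marker lists. Of 10 erythroleukemia markers 9 were in the knockout table, and their summed level was 867 to 878 CPM in EV, 788 to 811 CPM in HSP90α-KO and 766 to 788 CPM in HSP90β-KO. Among the resistance libraries the sum over all 10 was 2705 to 2736 CPM in parental cells and 1961 to 2059 CPM in PUHr, with TFRC as the most abundant gene. Of 5 lymphocyte markers, 4 in the knockout table summed to 13.3 to 15.6 CPM in EV, 8.59 to 10.4 CPM in HSP90α-KO and 20.8 to 23.8 CPM in HSP90β-KO, and all 5 to 12.5 to 13.1 CPM in parental cells and 9.45 to 9.97 CPM in PUHr, with CD3D leading and MS4A1 at no more than 3 reads. Of 5 monocyte and granulocyte markers, LYZ alone was in the knockout table, at 39.2 to 43.9 CPM in EV, 57.5 to 63.6 CPM in HSP90α-KO, where it rose (log2 fold change 0.58, standard error 0.051, limma adjusted p = 2.9e-10), and 29.8 to 31.8 CPM in HSP90β-KO, where it fell (-0.41, limma adjusted p = 3.3e-07). In PUHr it fell as well (-0.28, limma adjusted p = 4.1e-04), and in the resistance table, where MPO and ELANE were at no more than 3 reads, the 5 summed to 23.4 to 30.9 CPM. EPCAM was the only epithelial marker above 3 reads, at 58.2 to 66.4 CPM in the knockout table, 75.2 to 78.1 CPM summed with the others in parental cells and 25.4 to 28.0 CPM in PUHr. Fibroblast markers summed to at most 2.83 CPM in the knockout table and 10.1 CPM in the other. Of these, COL1A2 fell from 377 reads in parental cells to 11 in PUHr, and COL1A1 rose (0.42, limma adjusted p = 0.0044). The erythroid sum was lower in PUHr, beside the lower members, and LYZ moved in both knockouts, and the part of either in the levels of the members was not tested. In bulk libraries, fewer cells of a kind and less RNA per cell cannot be told apart.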

How the data were processed

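RNA-seq of 15 K562 libraries was analysed from 2 tables. The notes of the authors name FastQC and MultiQC for read quality, STAR for alignment to hg38, featureCounts for counting and edgeR, and the deposited values are log2 CPM. Versions and the strand setting of the counting are not given in the sources used here. In the resistance table the solvent is spelled DSMO, read as DMSO. On the linear scale, less the floor, values fell on whole reads within 0.0014 reads. Rows without an identifier held 0.027% to 0.036% of the reads and were left out.

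The deposited log2 values were compared with limma 3.58.1 (eBayes with intensity trend) in R 4.3.3, in 1 fit per table, for genes with log2 CPM of -1 or more in 3 libraries, with Benjamini-Hochberg adjustment over 17039 and 16503 genes, two-sided. Steps were tested on simulated data. Values are given for members past the test whose log2 fold change was 0.5 or more in size, for NFE2L2, KEAP1, NQO1, HMOX1, GCLC, GCLM, TXNRD1 and SRXN1 in every comparison, and for further members, chosen after their values were seen. The pathway and marker genes named were also chosen after their values were seen. The values of 1 pathway gene are not reported here. Members and lists were chosen with earlier results of these data known. Positions and exon overlaps are from GENCODE v44. Figures were drawn with matplotlib 3.10.9, and exact intervals computed with scipy 1.17.1. Alternatives covered the filter, pseudocounts of 0.1, 1 and 5 CPM, scaling, variance model, libraries in the fit, voom on recovered reads, a replicate block, each library left out, and the threshold.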

Additional observations from a re-analysis of the deposited data

How the results depend on the processing

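The counts of members called beyond 1 on the log2 scale depended on that threshold. With 0.5 in place of 1, 8 members were called in HSP90α-KO, 3 in HSP90β-KO, 9 between the knockouts and 7 in PUHr, and with 0 in place of 1, 25, 26, 33 and 31. In HSP90β-KO 2 members in place of 1 were called after median centring, and 1 to 2 with a library left out, because GSTA4 then passed -1. In PUHr 2 in place of 4 were called with a mean log2 CPM of at least 1, which left PTGR1 and AKR1B1 untested, and with a pseudocount of 5 CPM, which brought NQO1 to -0.96 and AKR1B1 to 0.44. Without the filter 6 were called, and with a library left out 3. The count past the adjusted p alone in HSP90β-KO was 16 in place of 26 without the intensity trend, and the cause was not tested.

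With a library left out, the members past the adjusted p alone numbered 20 to 25 in HSP90α-KO, 18 to 27 in HSP90β-KO, 29 to 33 between the knockouts and 27 to 30 in PUHr. Values that were near 0 turned sign: KEAP1 between the knockouts (-0.04 without HSP90α-KO replicate 1 and -0.01 without HSP90β-KO replicate 2, over a range of -0.04 to 0.06) and SRXN1 between the knockouts (-0.04 without HSP90α-KO replicate 3, range -0.04 to 0.42); the cause was not tested. Of the members named by the rule, those that passed in HSP90α-KO and PUHr, other than GPX3 and KEAP1 in HSP90α-KO, kept their direction and an adjusted p under 0.05 in every alternative in which they were tested, with GSTO1 at 1.33 to 1.43 and NFE2L2 at 0.91 to 0.99 in HSP90α-KO, and NQO1 at -1.14 to -0.96 and AKR1C1 at -1.26 to -1.07 in PUHr, so that NQO1 did not stay beyond -1 in each of them. Fitted values of PTGR1 ranged from -8.63 to -1.43 in HSP90β-KO and from -7.40 to -1.02 in PUHr, and of AKR1B1 from 0.44 to 3.56, with a pseudocount of 5 CPM at the small end and voom at the large end.

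The libraries were not treated as paired by number, since the labels name no pairing. Deviations of those with the same number correlated by -0.184 to 0.099 across genes. With 3 libraries per group these values cannot tell whether libraries of the same number were handled together. With a replicate block the members past the adjusted p alone were 25 in HSP90α-KO, 23 in HSP90β-KO, 31 between the knockouts and 31 in PUHr, and those beyond 1 were 2, 1, 3 and 4. Of the members past the test outside the rule, 9 of 14 in HSP90α-KO, 9 of 17 in HSP90β-KO, 14 of 22 between the knockouts and 13 of 19 in PUHr kept both in every alternative in which they were tested. TXNIP between the knockouts turned to -0.03 under quantile normalization. With the block, of the members named by the rule, NFE2L2 in HSP90β-KO lost its call (0.09, limma adjusted p = 0.063). Depth limits GPX2, GPX3, GPX7, HMOX1, SRXN1 and AKR1B1, which rest on few reads.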
